A study of Homo sapiens with 4 samples.

Results

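The regions described here lay at the ends of protein-coding genes and were called as open chromatin in both control libraries of HCT116 cells and in neither FOXD2 library. There were 388 of them among 122856 merged regions, and they lay within 1000 bp of an end of 424 of 19821 genes. HCT116 is an established human colorectal carcinoma line, here transduced with lentivirus and kept under puromycin selection. FOXD2 cells (2 libraries) carried a pSin construct that encodes FOXD2, a transcription factor of the forkhead family, and control cells (2 libraries) carried the empty vector. ATAC-seq maps open chromatin with the transposase Tn5, which inserts adapters into DNA that is not covered by nucleosomes. Each library was represented by a list of called intervals, and the intervals of the 4 lists were merged where they overlapped by at least 1 bp. A merged region was lost where both controls and neither FOXD2 library had an interval in it, and gained in the reverse case. The members were therefore selected on the calls in all 4 libraries, and their values in the controls are a description with no test. With 2 libraries in each group, no exact two-sided test of the groups could give a p below 0.333. The labels do not say whether replicates were grown separately, so differences between them may be technical, and they do not name the promoter that drives FOXD2 in the vector.

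The start of an active gene is usually held open by transcription factors and the transcription machinery, and is often the strongest accessible site of the locus. The far end of a gene, where transcription stops, is less regularly accessible, though enhancers and the starts of neighbouring genes can lie there. A gene may also start at several places, so that a site can disappear from a list of calls while another site at the same gene stays in it. Both questions asked of these regions concern that point: which genes they belong to, and whether those genes have another gene end called open in the FOXD2 libraries.

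The stretches under the lost region at the starts of 6 genes show what kind of sequence is concerned. The first 4 genes, DIRAS2, HLA-DOA, PDCL2 and ABHD2, had no gene-end interval in either FOXD2 list, and the other two, H2AJ and PCDHGB7, had one at the opposite end. Each line gives the 250 bases before the annotated start, from RefSeq on GRCh38.p14, 5′ to 3′ on the strand of the gene. Capitals mark matches to any of 14 short motifs on either strand. The ones found here were the GC box (GGGCGG), the CCAAT box (CCAAT), the AP-1 motif (TGANTCA) and the RUNX motif (TGTGGTT), and no match overlapped another. Over all 15812 windows of 300 bp in the promoter table, 58.5% held the GC box, 36.3% the CCAAT box, 5.76% the AP-1 motif and 3.55% the RUNX motif. The lost region covered all 250 bases at DIRAS2, 206 at HLA-DOA, 165 at PDCL2, 231 at ABHD2, 233 at H2AJ and 167 at PCDHGB7.
DIRAS2, chr9:90642825-90643074, minus strand: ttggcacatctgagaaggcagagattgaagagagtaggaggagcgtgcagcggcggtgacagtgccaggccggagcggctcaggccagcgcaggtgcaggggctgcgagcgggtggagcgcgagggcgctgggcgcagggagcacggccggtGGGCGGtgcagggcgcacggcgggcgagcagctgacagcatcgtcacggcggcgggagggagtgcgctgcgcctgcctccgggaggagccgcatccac
HLA-DOA, chr6:33009592-33009841, minus strand: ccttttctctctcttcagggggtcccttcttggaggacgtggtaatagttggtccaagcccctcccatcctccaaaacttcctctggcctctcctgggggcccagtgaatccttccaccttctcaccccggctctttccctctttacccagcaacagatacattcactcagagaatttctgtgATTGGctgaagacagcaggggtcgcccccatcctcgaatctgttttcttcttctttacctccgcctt
PDCL2, chr4:55592246-55592495, minus strand: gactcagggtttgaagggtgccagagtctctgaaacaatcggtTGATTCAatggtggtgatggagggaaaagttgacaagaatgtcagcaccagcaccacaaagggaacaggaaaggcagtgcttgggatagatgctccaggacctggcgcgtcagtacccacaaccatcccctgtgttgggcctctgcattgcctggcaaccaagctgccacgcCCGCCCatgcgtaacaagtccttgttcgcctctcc
ABHD2, chr15:89040748-89040997, plus strand: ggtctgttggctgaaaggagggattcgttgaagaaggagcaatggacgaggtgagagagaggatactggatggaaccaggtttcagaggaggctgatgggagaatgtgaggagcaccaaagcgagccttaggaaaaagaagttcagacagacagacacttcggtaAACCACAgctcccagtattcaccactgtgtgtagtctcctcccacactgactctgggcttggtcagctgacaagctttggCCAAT
H2AJ, chr12:14774155-14774404, plus strand: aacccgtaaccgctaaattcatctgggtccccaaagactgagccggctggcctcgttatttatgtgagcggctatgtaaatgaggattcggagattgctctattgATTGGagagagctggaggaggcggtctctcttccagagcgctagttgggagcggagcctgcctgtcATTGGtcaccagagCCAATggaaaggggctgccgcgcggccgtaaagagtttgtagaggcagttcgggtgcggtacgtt
PCDHGB7, chr5:141417427-141417676, plus strand: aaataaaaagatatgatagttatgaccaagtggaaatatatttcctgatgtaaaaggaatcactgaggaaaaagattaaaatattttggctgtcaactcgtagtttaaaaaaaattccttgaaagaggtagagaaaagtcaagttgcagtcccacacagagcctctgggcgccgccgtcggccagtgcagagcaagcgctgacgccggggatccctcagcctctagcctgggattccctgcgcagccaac
Their base composition ranged widely. The DIRAS2 stretch was 72.4% G or C with an observed-to-expected CpG ratio of 0.895, as in a CpG island, whereas the ABHD2 and HLA-DOA stretches had 51.2% and 53.2% G or C and CpG ratios of 0.256 and 0.312.

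The lists held 82739 and 64675 intervals in FOXD2 replicates 1 and 2, and 77752 and 72796 in control replicates 1 and 2. A gene-end interval was present at 72.5% and 69.8% of genes in the FOXD2 libraries and at 73.4% and 71.6% in the controls. The weakest called interval had 8 and 9 overlapping tags in FOXD2 replicates 1 and 2 and 8 in each control, so a weaker site is absent from a list without being closed. Read depth is unknown, and the lists cannot tell a site open in fewer cells from a site open more weakly in every cell. Of the 10 colon epithelial markers, 9 had a gene-end region in all 4 libraries, the exception being VIL1. The counts were 1 of 8 for leukocyte, 2 of 6 for fibroblast, 0 of 5 for endothelial and 5 of 6 for neural markers. The lists hold no transcript level, so the expression of FOXD2 was not checked.

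Lost regions were 3.87% of all merged regions and 2.12% of the 18341 gene-end regions, against 0.976% of gene-end regions for gained ones (179 regions). At the level of genes, 2.14% had a lost gene-end region and 0.943% a gained one (187 genes). Of the 388 regions, 347 lay near 1 gene, 40 near 2 and 1 near 3 or more. They were spread over all chromosomes, from 0.84% of the gene-end regions of chromosome 18 to 2.87% of those of chromosome 9, with the highest number on chromosome 19 (41 of 1476).

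Most lost gene-end regions were weak calls. The authors' −log10 q, the strength of a peak within its own list, had a median of 7.24 in control replicate 1 and 6.46 in control replicate 2, at the 31.3 and 24.8 percentiles of those lists. The values ran from 2.68 to 23.8 and from 2.54 to 31.2. At gene-end regions called in all 4 libraries, the median was 43.3 and 32.9 in FOXD2 replicates 1 and 2, and 51.5 and 47.2 in control replicates 1 and 2. The members had a median of 24 and 22 tags at the summit over a local background of 4.73 and 4.57 tags, and were 378 bp wide at the median (200 to 1189). Gained gene-end regions resembled them, with a median −log10 q of 6.85 and 6.55 in the FOXD2 libraries, 22 and 20 tags and a width of 395 bp. In 241 of the 388 members the weaker control stood below the 25th percentile of its list, and in 23 both controls stood at or above the 50th.

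**Figure D1:**
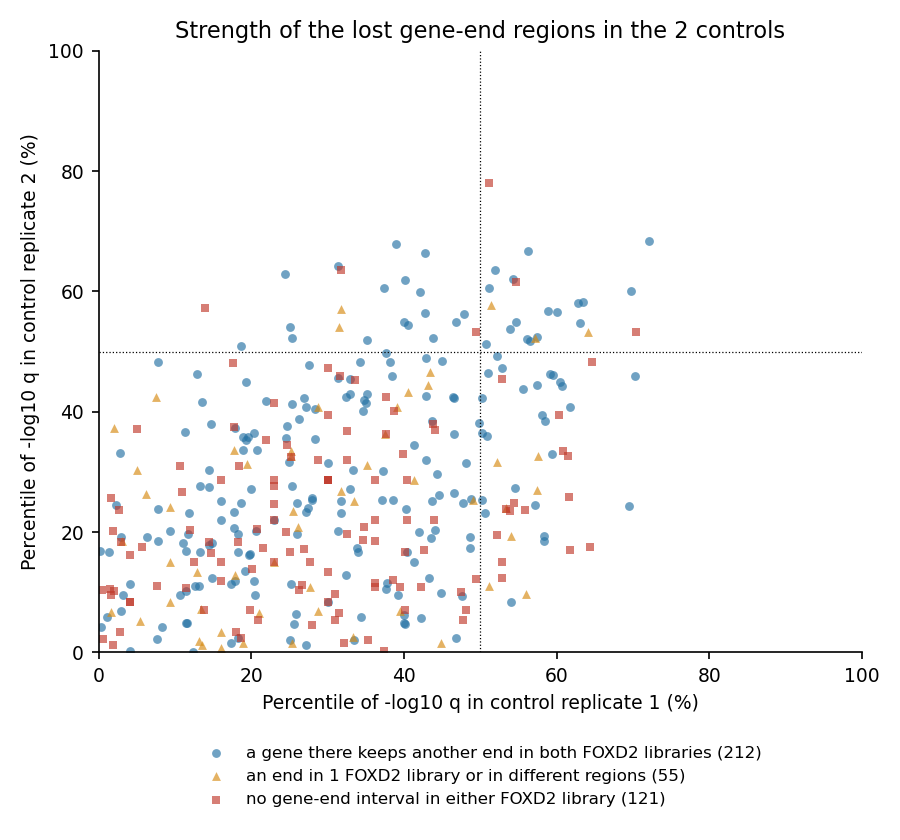
Strength of the 388 lost gene-end regions. Each point is a region, placed by the percentile of its −log10 q within control replicate 1 (x axis, %) and control replicate 2 (y axis, %), with colour and shape for the state of its genes in the FOXD2 libraries and dotted lines at the 50th percentile. The 23 regions in the upper right corner are those at or above the 50th percentile in both controls.

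Lost regions at gene ends stood over a higher local background than those elsewhere. A lost region away from gene ends (4370 regions) had a median of 18 tags in each control over a background of 2.34 and 2.44 tags, so the members carried more tags over a higher background and had a lower fold over it (4.06 and 3.99, against 4.85 and 4.79). Among the members, those whose genes had another end in both FOXD2 libraries had a median background of 6.97 and 6.68 tags in the controls. Those whose genes had no gene-end interval in either FOXD2 library had 3.14 and 3.06 tags. The part that the density of neighbouring reads plays in the loss of a call was not tested.

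Relative to the gene, the lost regions were divided between starts and far ends as gained ones were. The strand was known for 305 regions, of which 180 (59.0%) lay near a start and 125 (41.0%) only near a far end. The shares were 60.2% and 39.8% for gained regions, 82.6% and 17.4% for any gene-end region, and 91.6% and 8.45% for the regions called in all 4 libraries. The differences were not tested. The body of a lost region also tended to sit beside the end rather than on it. A gene end lay under 92 of the 388 lost regions (23.7%), under 25.1% of gained regions and under 82.4% of regions called in all 4 libraries. Of the lost regions at a start, 60 pairs of region and gene lay across it, 92 downstream on the side of the gene and 35 upstream. At far ends 11 lay across, 76 upstream on the side of the gene and 66 beyond it. At a very short gene, such as LOC128092247, a region on the side of the gene can lie past its other end. Because all 3 sets were defined by the calls themselves, these shares are descriptions.

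The nearest call in the FOXD2 libraries was often not far away. The median distance from a member to the nearest interval was 2980 and 4300 bp in FOXD2 replicates 1 and 2, against 2790 and 4460 bp to the nearest other interval in control replicates 1 and 2. Within 1000 bp, 100 members (25.8%) had an interval in both FOXD2 libraries, against 107 (27.6%) with another interval in both controls. Within 200 bp, both FOXD2 libraries had a call at 14 members (3.61%) and both controls another call at 20 (5.15%). At the other extreme, 116 members (29.9%) had no interval within 10000 bp in at least 1 FOXD2 library, and 123 (31.7%) no other interval as near in at least 1 control.

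Another gene-end region, at the same or the other end, was called in both FOXD2 libraries at 234 of the 424 genes (55.2%, 95% Clopper-Pearson interval 50.3 to 60.0). No gene-end interval was left in either FOXD2 library at 131 genes (30.9%, 26.5 to 35.5). The remaining 59 genes (13.9%) had an interval in FOXD2 replicate 1 alone (30 genes), in replicate 2 alone (26) or in both but in different regions (3). Taken by library, FOXD2 replicate 1 had a gene-end interval at 267 of the genes (63.0%) and FOXD2 replicate 2 at 263 (62.0%), and each control at all 424 by construction. Over all genes, open or not, 67.6% had a gene-end region in both FOXD2 libraries, 25.8% had none in either and 69.3% had a region in both controls. Of the 13739 genes with a gene-end region in both controls, which include the 424, 13130 (95.6%) had one in both FOXD2 libraries. None was left in either at 131 of them (0.953%), which are the same 131 genes by construction. For 185 of the 424 genes (43.6%) the lost region had been the sole gene-end region shared by the controls. The intervals here and below cover counting error only, since genes of 4 libraries are not replicates.

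**Figure D2:**
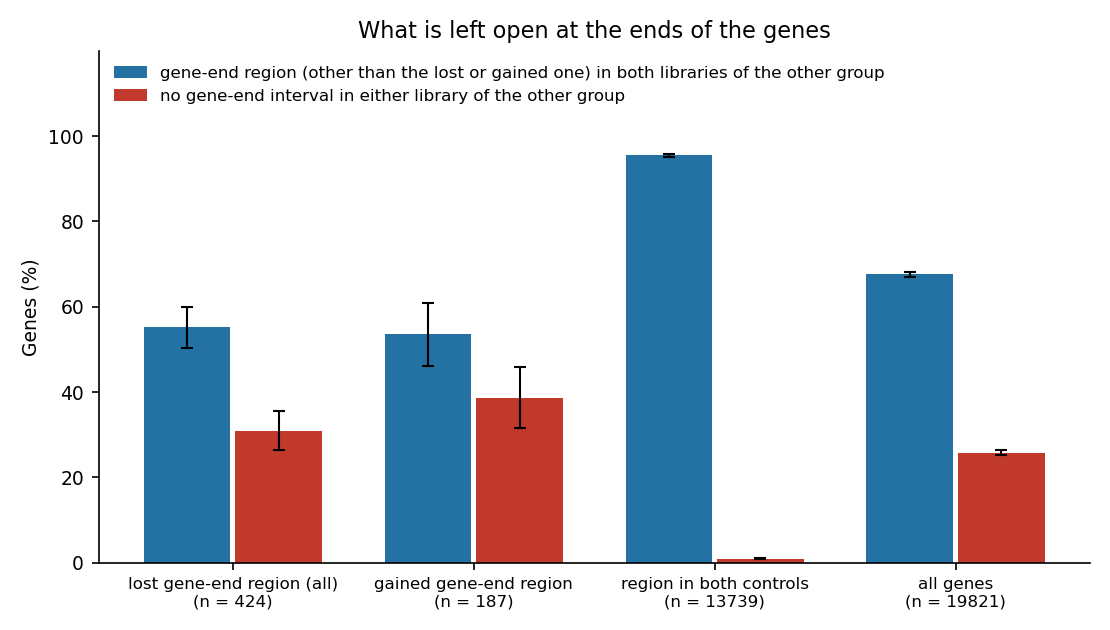
Share of genes (y axis, %) with a gene-end region, for lost and gained genes one other than the lost or gained, in both libraries of the opposite group (blue) or with no gene-end interval in either (red). From left to right the bars show the 424 genes with a lost region, judged in the FOXD2 libraries, the 187 genes with a gained region, judged in the controls, and, both judged in the FOXD2 libraries, the 13739 genes with a region in both controls and all 19821 genes, with 95% Clopper-Pearson intervals. Lost and gained genes stand at 55.2% and 53.5% in blue and genes open in both controls at 95.6%; the bases differ, since the last bar counts any gene-end region and includes genes with none in any library.

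The same count for gained regions gave similar shares. Of the 187 genes with a gained gene-end region, 100 (53.5%, 46.1 to 60.8) had another end open in both controls and 72 (38.5%, 31.5 to 45.9) had none in either. The counting intervals of the lost and gained shares overlapped, and the difference between them was not tested.

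What was left is given here by the end that had been lost. Among 186 genes with a region lost at the start, 64 (34.4%) had another region at the start in both FOXD2 libraries, 27 (14.5%) had one at the far end and 75 (40.3%) had no gene-end interval in either. Among 153 genes with a region lost at the far end, 102 (66.7%) had their start open in both FOXD2 libraries, 14 (9.15%) had another region at the far end and 31 (20.3%) had none. Over all genes with a known strand, 66.3% had a start region and 11.0% a far-end region in both FOXD2 libraries. The 66.7% with an open start was thus close to the share of all genes. The far-end shares of 14.5% and 9.15% lay on either side of 11.0%. These shares over all genes include genes with no region in any library.

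**Figure D3:**
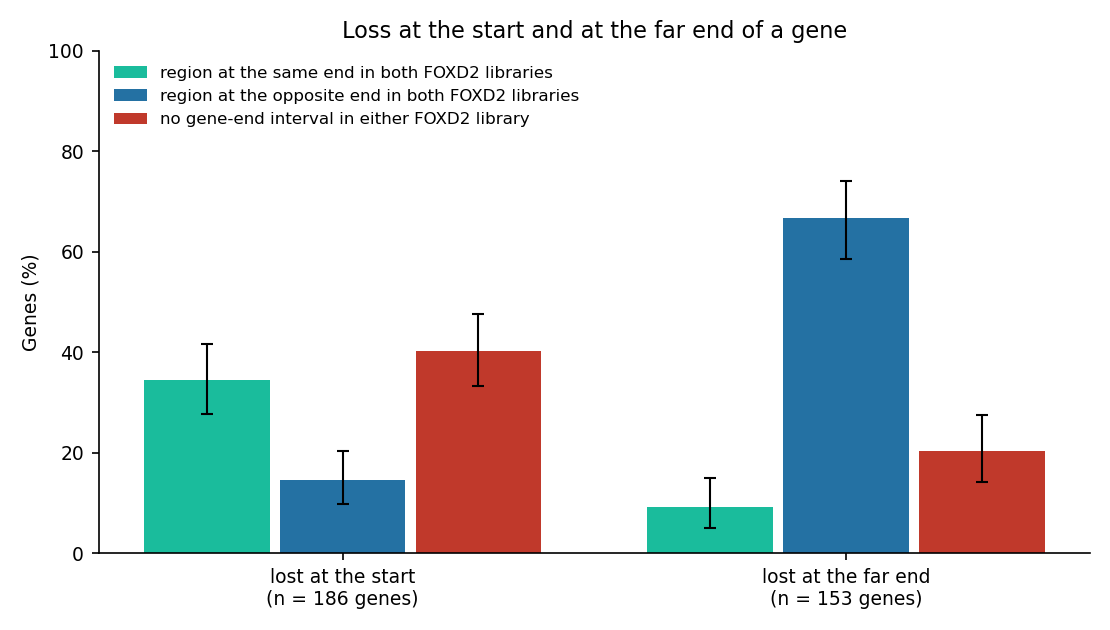
Share of genes (y axis, %) by what both FOXD2 libraries had at their ends, for the 186 genes with a region lost at the start and the 153 with a region lost at the far end, with 95% Clopper-Pearson intervals. Bars give a region at the same end (green), a region at the opposite end (blue) and no gene-end interval in either FOXD2 library (red); a gene can count under green and blue. The tallest bar is the 66.7% of far-end genes whose start was open, close to the 66.3% of all genes with a known strand.

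The genes left without a gene-end interval were led by PTGIR, RGS1, KLRC2, DIRAS2 and HLA-DOA. At PTGIR, which encodes the prostacyclin receptor, neither FOXD2 library had an interval closer than 7842 and 7692 bp, and the controls had one of −log10 q 12.9 and 17.0 (chr19:46625217-46625559, 128 bp outside the gene). At RGS1, a regulator of G protein signalling best known from lymphocytes, the nearest FOXD2 intervals lay 10155 and 40528 bp away, and the controls had 28 and 20 tags over a background of 1.68 and 1.71 (chr1:192580481-192580803, 457 bp beyond the far end). Neither gene had a second gene-end region shared by the controls. At PTGIR, control replicate 1 alone had a further interval 766 bp inside that end, with −log10 q of 12.1.

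KLRC2 encodes an activating receptor of natural killer cells. Its lost region lay across a gene end (chr12:10435860-10436183), with no interval there in the FOXD2 libraries and −log10 q of 11.6 and 31.2 in control replicates 1 and 2, so the controls themselves differed widely. All 4 libraries had a call outside its window, and the nearest one lay 1446 and 1419 bp from the lost region in the FOXD2 libraries. DIRAS2, a Ras-like GTPase gene, lost the region over its start (chr9:90642725-90643137), where the controls had 18 and 20 tags and the nearest FOXD2 intervals lay 77118 and 22991 bp away. HLA-DOA encodes a chain of HLA-DO, which tempers peptide loading of class II molecules. Its start region (chr6:33009317-33009797) was absent from both FOXD2 lists and had −log10 q of 17.9 and 11.2 in the controls.

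The next genes of this kind were PDCL2, LRRC14B, NPB, PRAC2 and ABHD2, with −log10 q in control replicates 1 and 2 of at least 8.89. The PDCL2 start region, at a gene of the phosducin-like family, had 19 and 18 tags in the controls. NPB encodes neuropeptide B. Its lost region, as merged from the calls of both controls (1012 bp), covered the whole gene. There, 70 and 61 control tags stood over a high background of 24.7 and 21.6. NPB, PRAC2 and LRRC14B each shared the lost region with a neighbour that had its other end open, which at NPB was PCYT2. The region at PRAC2 also touched HOXB13, a posterior homeobox gene, whose opposite end was at the 83.6 and 78.2 percentiles in the FOXD2 libraries and at 73.4 and 69.3 in the controls. The region at LRRC14B lay 181 bp from CCDC127, whose start had −log10 q of 92.9 and 77.2 in the FOXD2 libraries and 117 and 85.1 in the controls.

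ABHD2, a serine hydrolase gene, shows the limit of judging a gene by its outermost ends. Its lost region (chr15:89040767-89041109) lay across the annotated start, with no FOXD2 interval within 6241 and 16219 bp and −log10 q of 15.4 and 8.92 in the controls. Inside the gene, 9 regions were called in both FOXD2 libraries. The strongest, at chr15:89087721-89088985, stood at the 95.9 and 93.4 percentiles of the FOXD2 lists and at 97.3 and 96.7 of the control lists. Of the 131 genes with no gene-end interval in either FOXD2 library, 58 (44.3%, 35.6 to 53.2) had a region inside the gene in both, and 18 (13.7%) had one at or above the 75th percentile of both FOXD2 lists. RGS4, RGS1's relative, was among the latter, with an internal region at 87.1 and 87.0 in the FOXD2 libraries and at 72.8 and 77.7 in the controls. The shares of 44.3% and 13.7% have no counterpart over all genes here, so they do not set the 131 genes apart. The 131 genes were shorter than others, with a median length of 15631 bp against 21293 bp for genes with another open end and 24482 bp for all genes.

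**Figure D4:**
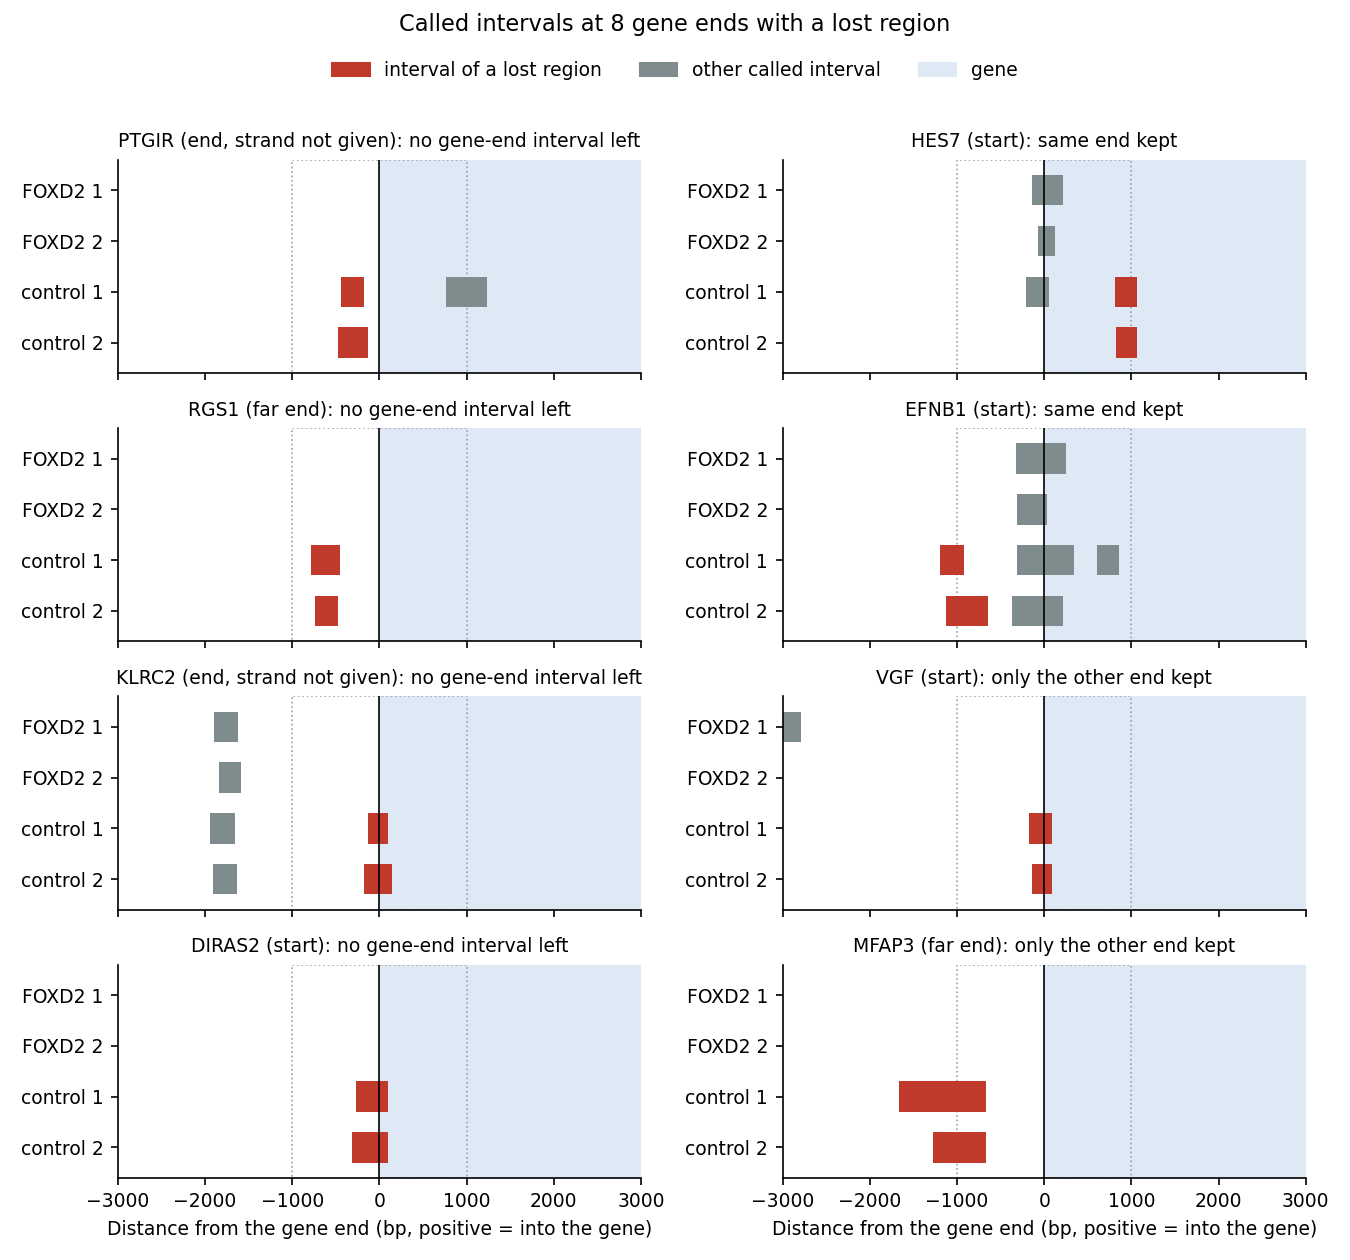
Called intervals around 8 gene ends, by distance from the end (x axis, bp, positive into the gene), with FOXD2 replicates 1 and 2 above control replicates 1 and 2. Red bars are the intervals of the lost region, grey bars other intervals, and dotted lines the window of 1000 bp; the left column shows genes with no gene-end interval left, the right column genes with another region at the same or the other end. At EFNB1 both FOXD2 libraries have an interval across the start beside the lost one, and at DIRAS2 they have none in view.

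At 100 of the 234 genes with another open end (42.7%), that region lay at the same end as the lost one. HES7, EFNB1, TMEM276, ELF3 and YPEL4 ranked highest among them. EFNB1 encodes ephrin-B1, a ligand of Eph receptors. Its lost region (chrX:68827830-68828374) lay 647 bp before the start, 321 and 331 bp from the nearest FOXD2 interval, with −log10 q of 17.3 and 15.2 in the controls. The region across the start itself (chrX:68828650-68829358) had −log10 q of 27.0 and 28.9 in the FOXD2 libraries and of 31.7 and 35.3 in the controls. The start was thus called in every library, and the lost call lay beside it.

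ELF3, which encodes an epithelial ETS factor, showed the same layout. The lost region (chr1:202009621-202009895) lay 692 bp before the start, 342 and 119 bp from the FOXD2 interval, and had −log10 q of 13.4 and 20.4 in the controls. The start region was at the 74.8 and 66.1 percentiles in the FOXD2 libraries and at 87.7 and 87.2 in the controls. Its far end was at 84.5 and 75.8 in the FOXD2 libraries and at 88.6 and 77.2 in the controls. HES7, a repressor that acts downstream of Notch in the segmentation clock, lost a site 815 bp into the gene (−log10 q 21.8 and 16.2 in the controls). The call at its start was weak in all libraries that had it, 7.27 and 2.96 in the FOXD2 libraries and 10.4 in control replicate 1, with none in control replicate 2. A region across the far end of HES7 was called in all 4 libraries, at 18.9 and 17.1 in the FOXD2 libraries and 23.8 and 18.5 in the controls. TMEM276, in a crowded neighbourhood on chromosome 8, had 107 and 100 tags in the controls over a background of 41.5 and 37.5, and 4 other gene-end regions in both FOXD2 libraries. YPEL4 lost a site 633 bp inside its far end, 405 and 600 bp from the nearest FOXD2 interval, and the end itself had −log10 q of 20.6 and 26.3 in the FOXD2 libraries and of 26.6 and 14.4 in the controls.

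The other 134 genes (57.3% of those with another open end) had it at the other end alone. VGF, MFAP3, H2AJ, PPY and SLC38A2 ranked highest. VGF encodes a neuropeptide precursor induced by nerve growth factor, and its lost region was the strongest of all members by the weaker control (chr7:101169863-101170124). No FOXD2 interval lay within 2622 and 2963 bp, and control replicates 1 and 2 had −log10 q of 23.8 and 21.6, with 83 and 79 tags over a background of 19.4 and 19.2. The region lay across the outermost annotated start of VGF and 372 bp beyond the far end of NAT16. The promoter table places the promoter window of VGF at another start, which the region does not overlap. The far end of VGF was called in all 4 libraries, at 18.5 and 16.3 in the FOXD2 libraries and 17.9 and 15.7 in the controls.

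SLC38A2 and MFAP3 lost broad regions at their far ends while their starts stayed among the strong sites of every list. SLC38A2, a neutral amino acid transporter gene, had the widest member of all, 1189 bp (chr12:46357106-46358294), with no FOXD2 interval within 13072 and 13119 bp and −log10 q of 12.5 and 13.2 in the controls. Its start was at 98.0 and 95.2 percentiles in the FOXD2 libraries and at 95.9 and 89.4 in the controls. MFAP3, which encodes a microfibril-associated protein, had a 994 bp region 672 bp beyond its end (chr5:154058122-154059115) with 24 and 22 tags in the controls over a background of 1.84 and 1.71. Its start was at 94.9 and 93.7 in the FOXD2 libraries and 94.3 and 92.9 in the controls. PPY, the pancreatic polypeptide gene, lost the region across its far end (−log10 q 17.0 and 13.7 in the controls), and its start had 31.1 and 24.3 in the FOXD2 libraries and 33.6 and 28.6 in the controls.

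H2AJ, which encodes a histone H2A variant, exchanged ends in the calls. The region across its start (chr12:14774172-14774547) was absent from both FOXD2 lists and had 43 and 42 tags in the controls. A region 373 bp inside its far end (chr12:14777355-14777629) had −log10 q of 16.0 and 10.2 in the FOXD2 libraries and was in neither control. H2AJ was 1 of 5 genes with both a lost and a gained gene-end region, the others being CIMAP1A, SLC6A11, TMEM154 and TPM2. At SLC6A11, a GABA transporter gene, the lost region and the gained one were neighbours, with the nearest interval of FOXD2 replicate 1 only 8 bp from the lost region and that of FOXD2 replicate 2 93 bp from it. PCDHGB7, a clustered protocadherin gene, lost its start region (−log10 q 10.3 and 13.8 in the controls). The shared far end of its cluster had 11.5 and 8.39 in the FOXD2 libraries and 17.4 and 19.8 in the controls.

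Among the remaining strong members, MAZ and SOX12 also had other open ends, while NAT16 and TMPRSS11E were left with a call in 1 FOXD2 library. MAZ, a zinc finger factor gene, lost a site 522 bp into the gene with 79 and 84 tags in the controls over a background of 27.9 and 25.3, and its start was at 92.2 and 85.2 percentiles in the FOXD2 libraries and at 87.3 and 80.3 in the controls. SOX12, a SOX family gene, lost a site 424 bp beyond its far end (−log10 q 14.1 and 12.8 in the controls), and the region across its start was at 84.8 and 82.6 in the FOXD2 libraries and at 85.2 and 82.3 in the controls. A further region 720 bp before the start was at 95.1 and 96.8 in the FOXD2 libraries and at 82.6 and 88.9 in the controls. TMPRSS11E, a membrane serine protease gene, lost a site 837 bp beyond its far end with 24 and 20 tags in the controls, 46197 and 50918 bp from the nearest FOXD2 interval.

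The gene-end regions that remained at these genes were somewhat weaker than elsewhere, in all 4 libraries alike. The 242 regions called in all 4 libraries at genes with a lost region had a median percentile of 84.4 and 80.9 in the FOXD2 libraries and of 83.8 and 81.2 in the controls. Over all 12622 such regions the medians were 89.2 and 85.7 in the FOXD2 libraries and 88.6 and 87.4 in the controls. The ranges between quartiles overlapped in every library, and the FOXD2 medians at these genes lay on either side of both control medians.

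**Figure D5:**
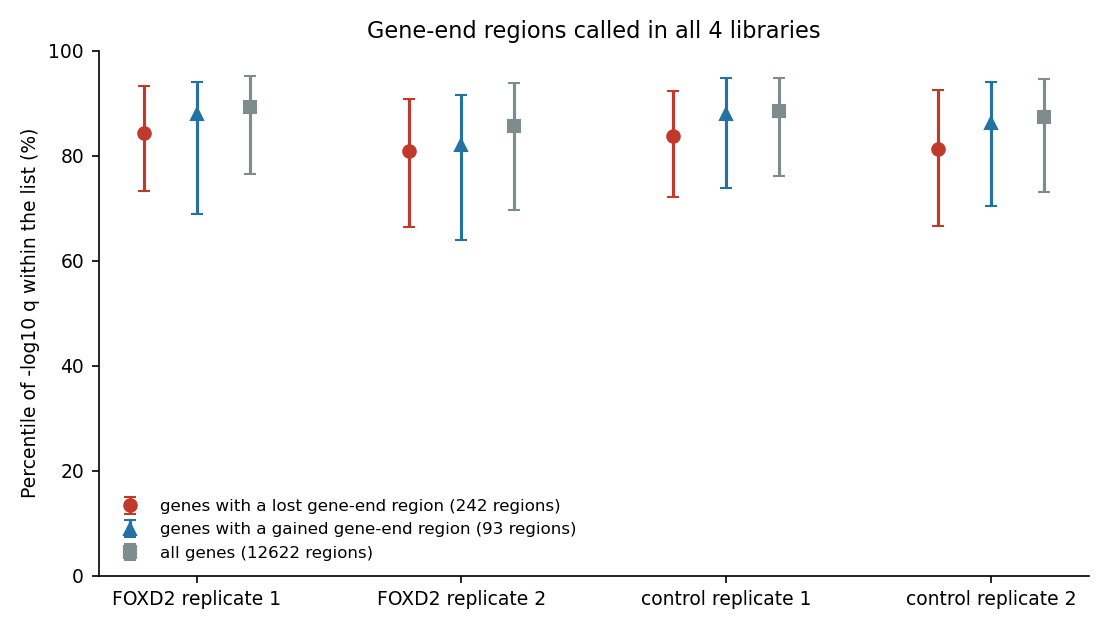
Percentile of −log10 q within its list (y axis, %) of gene-end regions called in all 4 libraries, by library, FOXD2 left of control. Points are medians and bars run between the quartiles, for the 242 regions at genes with a lost gene-end region, the 93 at genes with a gained one and all 12622. At genes with a lost region the medians lie between 80.9 and 84.4 in the 4 libraries.

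Inside the same genes, away from their ends, regions were both lost and gained. The 424 genes held 1478 regions inside, of which 79 were lost (5.35%) and 65 gained (4.4%). Over all genes 4.22% of such regions were lost and 4.71% gained. The differences between these shares were not tested.

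Repeated loss at a single gene was rare. ACP5, CFAP157, CX3CL1, PSMG3 and RCN3 had 2 or more lost gene-end regions, with 3 at CFAP157. RCN3, an endoplasmic reticulum calcium-binding protein gene, lost a region at its start and another at its far end, with −log10 q of 12.2 and 6.27 at the start and 6.2 and 5.51 at the far end in the controls, and had no gene-end interval in either FOXD2 library. ACP5, the tartrate-resistant acid phosphatase gene of osteoclasts, had a pair of weak sites in its first 1000 bp (13 to 18 tags), again with none left. CX3CL1, the gene of the chemokine fractalkine, lost a site at either end and had an interval in 1 FOXD2 library. CFAP157 and PSMG3, a proteasome assembly chaperone gene, had another region in all 4 libraries, at the 91.1 and 83.8 percentiles in the FOXD2 libraries and 88.7 and 82.6 in the controls at PSMG3.

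At the borders of the rule, the nearest members inside the window were at PLD4 (1000 bp) and IGFN1 (997 bp), with −log10 q of 6.43 and 5.35 and of 3.54 and 6.24 in the controls. The nearest lost regions outside it were at FSCN1 (1001 bp, 6.55 and 4.81) and PRSS22 (1007 bp, 8.56 and 4.7). The weakest members were at LGALS7 (4.95 and 2.54 in the controls) and CNBD2 (3.74 and 2.71). LGALS7 and its near-identical copy LGALS7B, both members, may share reads, so their assignment is uncertain. A further 624 gene-end regions were in both controls and FOXD2 replicate 1, with a median −log10 q of 7.64 there, and 229 were in both controls and FOXD2 replicate 2 (6.73). The lost set is thus bordered by a larger set that had a call in 1 FOXD2 library.

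By family, lost ends were scattered. Of 43 lists, zinc finger (ZNF) genes had 2 of 517 with a lost gene-end region (0.387%) and solute carriers 11 of 398 (2.76%), against 2.14% of all genes. Prostanoid receptors had 2 of 9, PTGIR and PTGDR, and regulators of G protein signalling 2 of 23, RGS1 and RGS4. All of these 4 genes were left with no gene-end interval in either FOXD2 library. Inside the gene, PTGIR, PTGDR and RGS4 had a region called in both FOXD2 libraries, and RGS1 had none. PTGDR, the prostaglandin D2 receptor gene, was a weak case, with 10 and 12 tags in the controls, and the RGS4 region had 24 and 17. HLA genes had 2 of 19, HLA-DOA and HLA-DPA1, again with no gene-end interval left, and 0 gained. HLA-DPA1 had a region inside the gene in both FOXD2 libraries, at the 58.4 and 44.4 percentiles, and HLA-DOA had none. SOX genes had 3 of 19, of which SOX12 had another end and SOX15 and SOX30 had none. Families of this size change their share by several percentage points with a single gene, so they are given as counts. Only a gene with a gene-end region in both controls could be a member, as 13739 of all genes had. Such a region was present at 355 zinc finger genes, 262 solute carriers and 7 prostanoid receptors. It was present at 12 regulators of G protein signalling, 14 HLA genes and 14 SOX genes.

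Developmental homeobox genes appeared in both states. HOX genes had 2 of 40, HOXA9 and HOXB13. A list matched by symbol roots such as NKX, PAX and LHX had 4 of 59, PAX6, NKX6-3, LHX3 and SIX6, beside 2 gained. Homeobox genes with roots outside the list are not counted here. Those with a lost gene-end region include IRX4, IRX6, ALX4, BARHL1, CUX2, GSX2, ISX and MKX. Those with a gained one include GSX1, DBX1 and NANOG. PAX6, a master gene of eye development, had −log10 q of 12.3 and 6.30 at its start in the controls, and SIX6, another eye gene, 8.20 and 2.80. Genes matched by the symbol roots KLR, KIR, LILR, SIGLEC and CLEC had 4 of 72, namely KLRC2, CLEC2L, CLEC4M and CLEC16A. The match is by name alone, and CLEC16A is not a cell-surface receptor of leukocytes but a regulator of autophagy. A gene-end region in both controls was present at 27 of the 40 HOX genes. It was present at 30 of the 59 genes with roots such as NKX, and at 14 of these 72. Orphan and adhesion G protein-coupled receptors had 5 of 106, potassium channels 4 of 83, and calcium, sodium and TRP channels 3 of 63. In these lists 56, 49 and 42 genes had a gene-end region in both controls and could be members. Of all genes, 2.14% had a lost gene-end region. Cytosolic ribosomal proteins had 3 of 84, RPS9, RPL18 and RPS29, all with their start open in both FOXD2 libraries. The RPS9 start was at 89.6 and 87.7 percentiles in the FOXD2 libraries and at 90.2 and 88.7 in the controls.

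Several lists had no member at all. There were 0 of 55 keratins (3 gained), 0 of 85 interleukins and their receptors, 0 of 30 integrins, 0 of 24 claudins, 0 of 29 WNT pathway genes (1 gained, WNT11), 0 of 20 MAPK feedback genes, 0 of 10 colon epithelial markers and 0 of 14 ubiquitous control genes. A gene could be a member only with a gene-end region in both controls, as 12 of the keratins, 37 of the interleukin genes, 23 of the integrins, 9 of the claudins, 23 of the WNT pathway genes, 20 of the MAPK feedback genes, 9 of the colon markers and 13 of the control genes had. With 2.14% of all genes having a lost region, a count of 0 does not set lists of this size apart. Markers of other cell types gave 1 of 8 for leukocytes (CD3E, no gene-end interval left), 1 of 5 for endothelium (KDR, with CDH5 gained) and 1 of 6 for neural cells (TUBB3), the last pair with another end in both FOXD2 libraries. Fibroblast markers had 0 of 6 lost and 0 gained. In the leukocyte, endothelial, neural and fibroblast lists, 2, 1, 5 and 3 genes had a gene-end region in both controls. In the forkhead family, to which FOXD2 belongs, FOXP2 alone of 52 genes had a lost gene-end region, and the gene had another end in both FOXD2 libraries.

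Where a lost region lay over a promoter window, from 250 bp before to 50 bp after the start, its bases resembled those of promoters called in all 4 libraries in G and C content. The 84 windows had a median of 66.2% G or C, against 66.7% in 9907 windows under a region called in all 4 libraries and 50.7% in 4844 windows with no region. Their median CpG ratio, 0.727, was lower than the 0.856 of windows called in all 4 libraries, and the quartiles (0.355 and 0.839) reached from CpG-poor to CpG-island promoters. The 31 windows under a gained region had 59.7% G or C and a CpG ratio of 0.371. The forkhead motif TGTTTAC, searched on both strands, was in 1 of the 84 windows (1.19%, 0.0301 to 6.46), in 1.99% of windows called in all 4 libraries, 3.98% of those with no region and 2.62% of all 15812. GC boxes were in 70.2% (59.3 to 79.7) of the 84, 75.7% of windows called in all 4 libraries, 23.5% of those with no region and 58.5% of all. The ETS motif CCGGAAG was in 5.95% (1.96 to 13.3) of the 84, 20.2% of windows called in all 4 libraries, 3.84% of those with no region and 14.2% of all. A match describes the letters of the window and says nothing of binding. The promoter table had an entry for 332 of the 424 genes (78.3%), under the 80% set for such a check. The comparison is therefore void for the members at large and describes these 84 windows.

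Few members touched non-coding genes. An end of a long non-coding RNA gene lay within 1000 bp of 38 lost regions (9.79%), against 11.7% of gained regions and 20.5% of those called in all 4 libraries. An end of a microRNA gene lay as near to 8 (2.06%), against 0 gained regions and 1.28% of those called in all 4 libraries.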

How the data were processed

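ATAC-seq had been run on 2 FOXD2 and 2 control libraries of HCT116 cells. The build was hg38 and the tools were MACS2 2.2.7.1, Bowtie2 2.3.4.1, cutadapt 3.4, bedtools and Picard, per the submitters' processing notes, which give no settings, including any shift of read ends for Tn5. The authors deposited 1 interval list per library, with no pooled list. Each interval has the authors' fold over local background (a ratio), a −log10 p and a −log10 q at the summit, a whole-number score derived from −log10 q, and the summit's offset. The score, a value of a single peak in the deposited lists, was not used.

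Chromosomes 1 to 22 and X were used, and 0.208% to 0.251% of each list lay elsewhere and was left out. Genes were the 19821 protein-coding genes of RefSeq on GRCh38.p14, the build of hg38, and strand and promoter sequence came from a RefSeq table with an entry for 15812 of them (none on chromosome 8). A gene's start and far end could therefore be told apart at 79.8% of genes, and exons were not used. Tags at the summit and the local background were recovered from the deposited fold and −log10 p, and matched it within 0.002 for 100% of the peaks with a −log10 p below 60. Percentiles of −log10 q are ranks within a list and are not comparable as levels between lists. Shares carry 95% Clopper-Pearson intervals for counting error. No test between groups was made. The scripts (Python 3.11.15, numpy 2.4.6, pandas 2.3.3, scipy 1.17.1) were tested on simulated data.

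The members, the 43 gene lists, the 14 motifs and the rule for the genes named (the strongest members by the weaker control, overall and within each state of the gene, then list members, repeated losses, the widest and the borders of the rule) were chosen with earlier results of these data known. The choices tried were the window, the threshold, the overlap, the list length, the ends counted and leaving out each library.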

Additional observations from a re-analysis of the deposited data

How the results depend on the processing

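The 4 counts and shares (388 regions, 424 genes, 55.2% of genes with another gene-end region in both FOXD2 libraries, 30.9% with no gene-end interval in either) were recomputed under 12 alternatives, and 18 of the 48 values stayed within 1.5 times the count or within the counting interval of the share. Leaving out 1 library loosens the rule, since fewer libraries must fit it, and gave 634 to 1479 regions, 683 to 1535 genes, 54.2% to 64.9% with another end and 27.2% to 40.4% with none. Without FOXD2 replicates 1 and 2 there were 1041 and 634 regions, and without control replicates 1 and 2 there were 1166 and 1479. A window of 500 bp gave 244 regions, 261 genes, 41.4% and 47.1%, and a window of 2000 bp gave 652 genes, 68.9% and 19.3%. Windows of 100 bp to each side of the summits gave 700 regions, 777 genes, 62.8% and 15.4%, and gene starts alone gave 180 regions, 186 genes, 34.4% and 52.2%. Merging across gaps of up to 200 bp gave 49.5% and 38.4%. With −log10 q of 5 or more required in both controls 60.6% had another end, and with that threshold on every list 35.9% had none. Lists shortened to equal length gave 334 regions. The share of genes with another open end thus grew with the window. The same window also sets which genes are counted, 261 at 500 bp and 652 at 2000 bp. The change in the genes counted and the wider search for another end were not separated, so the cause of the rise was not tested. No paired analysis was possible because the results come from no test between groups. Read depth is unknown, and its part in the loss of a call was not tested. The weakest interval of each control had 8 tags, whatever its local background. The members had a median of 24 and 22 tags in the controls over a background of 4.73 and 4.57, so these tag counts are not directly comparable.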

Other observations

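The following genes were picked after their values were seen, and no test was made. The widest lost gene-end regions included several at far ends. Of the 10 widest, 5 lay at a far end, 3 at a start and 2 at genes with no strand given. The start was open in both FOXD2 libraries at 4 of the 5 far-end genes. Among all members of known strand, 41.0% lay only near a far end. Of all genes with a region lost at the far end, 66.7% had their start open, so these counts do not set the widest apart. Widths are of merged regions, which can join offset calls of the 2 controls, as at NFE2L3. Beside SLC38A2 (1189 bp) and MFAP3 (994 bp), these were NFE2L3, a gene of the CNC family of transcription factors (1122 bp, −log10 q of 8.06 and 12.5 in the controls), and AREG, which encodes the EGF receptor ligand amphiregulin (983 bp, 11.6 and 16.4). The nearest FOXD2 intervals lay 11754 and 12135 bp from the NFE2L3 region and 4319 and 4201 bp from the AREG region. The AREG start was at the 92.9 and 94.9 percentiles in the FOXD2 libraries and at 95.2 and 93.2 in the controls. The 3 wide regions at starts, at LOX, ALPP and BNC2, left no gene-end interval in either FOXD2 library. LOX encodes lysyl oxidase, which cross-links collagen, and its 1069 bp region had −log10 q of 9.69 and 6.13 in the controls.

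Of 12 genes named SLC38A, which encode amino acid transporters, 4 had a lost gene-end region and 0 a gained one. Over all genes, 2.14% had a lost and 0.943% a gained gene-end region. SLC38A1, SLC38A2 and SLC38A4 are neighbours on chromosome 12. SLC38A1 lost a site 777 bp inside its start, 381 and 394 bp from the nearest FOXD2 interval, and had the start itself open (79.1 and 67.2 percentiles in the FOXD2 libraries, 81.7 and 74.9 in the controls). SLC38A4 lost the call 481 bp inside its start, with 16 and 14 tags in the controls and no FOXD2 interval within 76399 and 106308 bp. SLC38A5, on the X chromosome, lost a site 35 bp inside its far end (15 and 13 tags) and had a gene-end interval in 1 FOXD2 library.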
